A study of Rattus norvegicus with 23 samples.

Results

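The miR-17-92 cluster is a group of microRNAs (miRNAs) cut from a single primary transcript. Its members were taken here as every entry of the sRNAbench count table named rno-miR-17, 18a, 19a, 19b, 20a or 92a, with any hairpin number and either arm, which gave 13 of the 413 named entries. Of these, 10 had enough counts to be tested, among 269 testable entries in all. The data are small RNA libraries of PC12, a rat pheochromocytoma line obtained from a cell repository and kept in medium with horse and fetal bovine serum. All cells had been transfected with pcDNA3 and selected with G418. The α1ACT line stably expresses α1ACT, a transcription factor encoded within the calcium channel gene CACNA1A, with a 3xFlag tag at its C-terminus and 11 glutamine repeats, and the vector line carries the empty plasmid. Columns that the count tables name WT were taken as the α1ACT line, which the labels do not state. After the cells had been split, each line was collected at 4 times (6 h, 24 h, 3 d and 10 d). Each group has 3 libraries, except the vector line at 6 h with 2, which makes 23. The labels do not give the number of clones behind each line or say that replicates are separate cultures, so an effect of α1ACT and a difference between clones cannot be told apart, and p-values measure the spread between these libraries, which may be technical.

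miR-17-92, also known as oncomiR-1, is induced by MYC and E2F factors and promotes proliferation and survival in many tissues, including neural progenitors. Drosha cuts the shared transcript into hairpins and Dicer cuts each hairpin into a 5p and a 3p strand, of which usually one is loaded into Argonaute and kept while the other is degraded. Target choice is set mainly by the seed, bases 2 to 8 of the mature strand, and the cluster holds 4 seed families: miR-17 with miR-20a, miR-18a, miR-19a with miR-19b, and miR-92a. Because the hairpins share a transcript but are cut and degraded separately, mature members need not have the same level.

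In the RefSeq annotation of assembly GRCr8, 6 hairpins lie in the order Mir17, Mir18a, Mir19a, Mir20a, Mir19b1 and Mir92a1 on the plus strand of chromosome 15, within 785 bases. A second cluster of 5 hairpins on the minus strand of chromosome X, within 871 bases, holds Mir106a, Mir20b, Mir19b2, Mir92a2 and Mir363. Which build the counts were made on is not known here, so no positions are given. The mature sequences of miR-17-5p, miR-19b-3p and miR-92a-3p are the same from both chromosomes, so their counts cannot be assigned to one cluster. The arms miR-17-1-3p, miR-92a-1-5p and those of miR-18a, miR-19a and miR-20a come from chromosome 15 alone.

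The RefSeq mature sequences of the main strands are shown by seed family, with the seed in capitals, because the members described below differ in level although some differ by few bases. The miR-17 seed is held by a pair of members and by miR-106b-5p and miR-93-5p of the paralogous miR-106b-25 cluster:
rno-miR-17-5p: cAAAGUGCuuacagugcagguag
rno-miR-20a-5p: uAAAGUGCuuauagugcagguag
rno-miR-106b-5p: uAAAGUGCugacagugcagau
rno-miR-93-5p: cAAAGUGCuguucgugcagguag
Counted from the 5′ end and read from miR-17-5p to miR-20a-5p, the substitutions are C1U and C12U. The miR-18a seed differs from this one, and no other tested entry with a sequence holds it:
rno-miR-18a-5p: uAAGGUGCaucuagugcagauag
The members of the miR-19 family differ by the single substitution U11C, read from miR-19a-3p to miR-19b-3p:
rno-miR-19a-3p: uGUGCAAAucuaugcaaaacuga
rno-miR-19b-3p: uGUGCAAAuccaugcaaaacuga
The miR-92a seed is shared with miR-25-3p of the miR-106b-25 cluster and with miR-92b-3p and miR-32-5p, which are encoded elsewhere:
rno-miR-92a-3p: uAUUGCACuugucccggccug
rno-miR-25-3p: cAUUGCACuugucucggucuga
rno-miR-92b-3p: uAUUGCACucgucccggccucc
rno-miR-32-5p: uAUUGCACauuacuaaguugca
From miR-92a-3p the substitutions are U1C, C14U and C18U to miR-25-3p and U10C and G21C to miR-92b-3p, over the bases that both have. The less abundant arms that were also tested are shown because their counts give a second reading of the same hairpins:
rno-miR-17-1-3p: aCUGCAGUgaaggcacuugugg
rno-miR-18a-3p: aCUGCCCUaagugcuccuucu
rno-miR-19a-5p: uCGUUUUGcauaguugcacu
rno-miR-92a-1-5p: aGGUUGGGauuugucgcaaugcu

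The shallowest library was replicate 1 of the vector line at 3 d (448557 counts) and the deepest replicate 1 of the α1ACT line at 10 d (5070120 counts). Levels are given in CPM, counts scaled to a common library total, on which a library's floor of 3 counts lay between 0.592 and 6.69. Floors and tests cover counting error and the spread between libraries, and reads without molecular identifiers are not independent molecules. In a comparison with the authors' second count table, made with Chimira, 21 of 23 libraries were most like their namesake. For the vector line, replicate 2 of 6 h in one table was most like replicate 2 of 10 d in the other, and the reverse (r = 0.991 and 0.993, against 0.979 and 0.981 for their own names, over 99 entries). The sRNAbench names were kept, and calls that the exchange or omission of the pair changes are marked below. All 23 libraries share 1 estimate of the spread, so the exchange also moves adjusted p-values of the α1ACT line, whose fold changes it leaves as they are. The miRNAs that mark neuroendocrine PC12 cells (miR-375, miR-7a, miR-182, miR-183 and miR-96, 5 of 5 found) summed to between 147000 and 222000 CPM in every library. Blood markers (5 of 5 names found) summed to at most 11.5 CPM, muscle markers (1 of 4 found) to at most 0.383, miR-122 of liver was at 0, and mesenchymal and endothelial markers (4 of 5 found) summed to 502 to 1450 CPM in the vector line and 398 to 889 in the α1ACT line. Neuron markers (2 of 2 found) summed to 14.2 to 34.2 and 31.2 to 51.1 CPM.

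The cluster was a minor part of these libraries, with between 0.132% and 0.348% of all counts. Most of it was miR-92a-3p, which took 79.4% ± 5.37 (SD, n = 23) of the cluster's counts. On the CPM scale after TMM scaling (trimmed mean of M values), which is used for all levels below, its mean over the 23 libraries was 1860, which ranked 49 among the 269 tested entries. Next came miR-19b-3p at 154.2, miR-17-5p at 117.9, miR-92a-1-5p at 55.43 and miR-20a-5p at 49.65. The means of miR-19a-3p (22.72), miR-18a-5p (20.01) and miR-17-1-3p (18.27) were close to each other, and rno-miR-19a-5p (4.266) and miR-18a-3p (3.889) stood lowest. Mature miRNAs are of nearly equal length, 20 to 23 bases here, but adapters join some ends better than others, so levels of different miRNAs are read counts rather than copy numbers.

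Another 3 entries were too low to test. The passenger strand miR-20a-3p had 45 counts over 15 libraries, at most 5 in any of them. For miR-17-2-3p and miR-19b-1-5p, 2 counts each were found, in 1 library each. By its sequence, miR-17-2-3p is the 3p arm of the chromosome X hairpin Mir106a. Its chromosome 15 counterpart miR-17-1-3p had 1135 counts.

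miR-92a-3p, the member with the most reads and a miRNA known as a regulator of cell survival and of blood vessel growth, had its highest group mean at 3 d and its lowest at 10 d in both lines. In the vector line its levels were 2334 and 2265 CPM at 6 h, and 1621, 1899 and 1670 at 24 h. They were 3129, 2558 and 2342 at 3 d and 1022, 1492 and 1194 at 10 d. All libraries of 3 d lay above all of 6 h, those of 6 h above those of 24 h, and those of 24 h above those of 10 d. With the doubted pair exchanged, 6 h would span 1492 to 2334 and 10 d 1022 to 2265, both overlapping with 24 h, and 3 d would still lie above all other times.

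In the α1ACT line the levels of rno-miR-92a-3p were 2285, 1967 and 2178 CPM at 6 h and 1480, 1559 and 1438 at 24 h. At 3 d they were 2203, 2421 and 2491, and at 10 d 1140, 1066 and 1017. Here the ranges of 3 d and 6 h overlapped, and both lay above 24 h, which lay above 10 d. The plot of miR-92a-3p by library shows 3 d high and 10 d low in both lines.

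**Figure D1:**
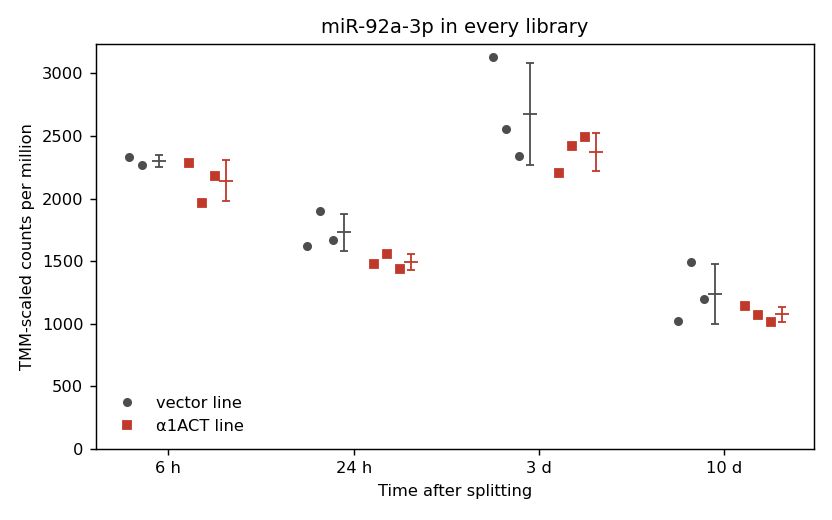
miR-92a-3p in each of the 23 libraries (y axis, TMM-scaled CPM) by time after splitting (x axis), for the vector line (circles) and the α1ACT line (squares). Bars give mean ± SD of each group. Both lines are highest at 3 d (2342 to 3129 in the vector line, 2203 to 2491 in the α1ACT line) and lowest at 10 d (1022 to 1492 and 1017 to 1140).

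Time was tested within each line with edgeR's quasi-likelihood F test, with Benjamini-Hochberg adjustment over the 269 tested entries, and an adjusted p under 0.05 counted as a call. For miR-92a-3p the adjusted p over the 4 times was 4.9e-07 in the vector line and 1.06e-07 in the α1ACT line. It fell from 3 d to 10 d by 1.11 on the log2 scale (SE 0.12, adjusted p = 6.9e-08) in the vector line and by 1.14 (SE 0.12, adjusted p = 5.01e-08) in the α1ACT line. From 24 h to 3 d miR-92a-3p rose by 0.63 (SE 0.119, adjusted p = 0.000319) and 0.67 (SE 0.119, adjusted p = 0.000198).

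From 6 h to 10 d miR-92a-3p fell by 0.90 on the log2 scale (SE 0.131, adjusted p = 1.66e-05) in the vector line and by 1.00 (SE 0.12, adjusted p = 4.16e-07) in the α1ACT line. The vector call was lost with the doubted pair of columns exchanged (-0.358, adjusted p = 0.993). With both left out the vector value was -1.2, in a fit with a single vector library at 6 h. From 6 h to 24 h miR-92a-3p fell by 0.52 (SE 0.119, adjusted p = 0.0035) in the α1ACT line, with the same fold but adjusted p = 0.142 when the pair of vector columns was exchanged. The vector value was -0.41 (SE 0.131, adjusted p = 0.218), and -0.145 (adjusted p = 0.918) with the exchange. The steps from 24 h to 3 d and from 3 d to 10 d kept their calls in both lines under each of 37 other settings. Marker sums also differed between 3 d and 10 d. The PC12 markers were at 205000 to 222000 and then 178000 to 200000 CPM in the vector line and at 195000 to 210000 and then 174000 to 182000 in the α1ACT line. The mesenchymal and endothelial sums were 788 to 1190 and then 502 to 791 in the vector line, a slight overlap, and 601 to 622 and then 398 to 478 in the α1ACT line. Their part in the result was not tested.

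Over the cluster, 2 of 10 tested members changed with time in the vector line (miR-92a-3p and miR-17-5p) and 2 in the α1ACT line (miR-92a-3p and rno-miR-19a-5p), while 36.8% and 42.4% of all tested entries did. With the pair exchanged the vector count was 1 (background 17.1%). The α1ACT count was 3 with DESeq2 or limma-voom and 4 with the Chimira table, the replicate block or the GC offset. It was 5 of 8 tested members with a mean CPM of at least 10. The share of all entries called in these settings is not given here, so these counts are not placed against it. The F tests of miR-17-5p and rno-miR-19a-5p lost their calls in 5 of 37 and 3 of 36 other settings. Among these were, for miR-17-5p, exchanging the pair (adjusted p = 0.0661) and leaving out vector 3 d replicate 1 (adjusted p = 0.155) or replicate 3 (0.14) and, for miR-19a-5p, leaving out α1ACT 3 d replicate 1 (0.122) or replicate 3 (0.0521) or α1ACT 10 d replicate 2 (0.0625). By step, the vector line had 1 call from 6 h to 10 d against a background of 11.9%, 0 from 6 h to 24 h (1.12%), 2 from 24 h to 3 d (23.8%) and 2 from 3 d to 10 d (25.3%). With the pair exchanged, the step from 6 h to 10 d in the vector line had 0 calls over all entries (0%), and with the pair left out 3.96%. Of the step from 6 h to 24 h, 1 member had an unadjusted p under 0.05. DESeq2 and limma-voom also called 0 members there. The α1ACT line had 1 call from 6 h to 10 d (27.1%), 1 from 6 h to 24 h (10.4%), 1 from 24 h to 3 d (22.3%) and 5 from 3 d to 10 d (32.7%).

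From 3 d to 10 d the members' median log2 fold change was -0.217 in the vector line and -0.364 in the α1ACT line, beside 0.013 and 0.007 over all tested entries. With upper-quartile scaling factors the medians over all entries moved to 0.25 and 0.13, and those of the members to 0.01 and -0.25. In the vector line 2 members were lower and 0 higher, and in the α1ACT line 4 were lower (miR-92a-3p, miR-18a-5p, miR-20a-5p and miR-92a-1-5p) and 1 higher (rno-miR-19a-5p). The α1ACT count dropped to 1 without α1ACT 3 d replicate 1, to 3 without α1ACT 3 d replicate 2 and to 2 without α1ACT 10 d replicate 3, and the vector count to 1 without vector 3 d replicate 3. The α1ACT count was 6 with limma-voom and with the compared groups alone. In the plot of this step miR-92a-3p is the lowest member in each line. In the α1ACT line miR-18a-3p lies close to it, at -1.12 with a wider SE of 0.481.

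**Figure D2:**
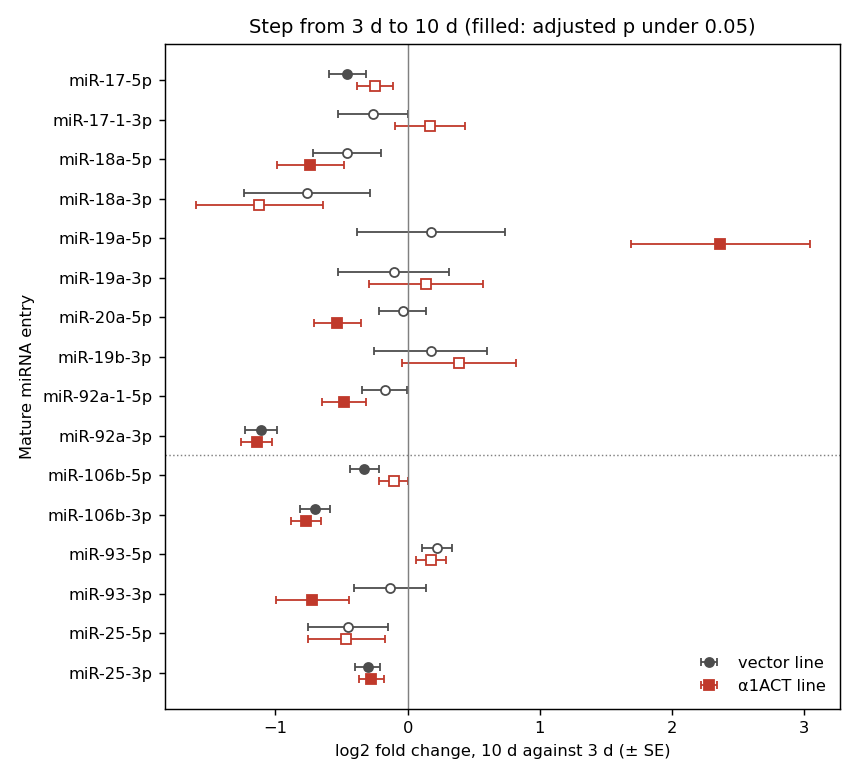
log2 fold change from 3 d to 10 d with its SE (x axis) for the 10 tested members and, under the dotted line, 6 entries of the paralogous miR-106b-25 cluster (y axis). Circles are the vector line, squares the α1ACT line, and filled symbols passed the adjusted p threshold of 0.05. miR-92a-3p lies at -1.11 and -1.14, and miR-19a-5p at 2.36 in the α1ACT line.

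The 5p arm of the chromosome 15 hairpin Mir92a1, miR-92a-1-5p, is the passenger strand and gives a second reading of 1 of the hairpins that make miR-92a-3p. Its levels in the vector line were 59.17 and 57.23 CPM at 6 h, 58.04, 57.31 and 52.68 at 24 h, 69.49, 60.44 and 55.99 at 3 d and 59.45, 61.25 and 41.61 at 10 d. The α1ACT line had 58.99, 50.03 and 47.07, then 57.41, 57.45 and 50.18, then 68.48, 63.28 and 55.65, and at 10 d 46.74, 50.43 and 36.61. All groups of the vector line overlapped with the group at 10 d, whereas in the α1ACT line 3 d lay wholly above 10 d.

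From 3 d to 10 d miR-92a-1-5p fell by 0.48 (SE 0.168, adjusted p = 0.0292) in the α1ACT line, and its value in the vector line was -0.17 (SE 0.17, adjusted p = 0.486). The call in the α1ACT line was lost in 8 of 37 other settings. The number of miR-92a-3p counts per count of miR-92a-1-5p in the vector line was 39.5 ± 0.141 (SD, n = 2) at 6 h. It was 30.9 ± 2.69 (n = 3) at 24 h, then 43 ± 1.72 (n = 3) by 3 d and was 23.4 ± 5.81 (n = 3) by 10 d. The α1ACT line, at the same times, had 41.4 ± 4.23, 27.2 ± 1.45, 38.4 ± 6.3 and 24.4 ± 3.35 (n = 3 each). In the vector line the ratio had the same order of times as miR-92a-3p itself, but with the doubted pair exchanged it was 31.9 ± 10.7 (n = 2) at 6 h and 28.5 ± 11.2 (n = 3) at 10 d. Since miR-92a-3p can also come from Mir92a2 on chromosome X, it is not a ratio of the arms of 1 hairpin alone.

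**Figure D3:**
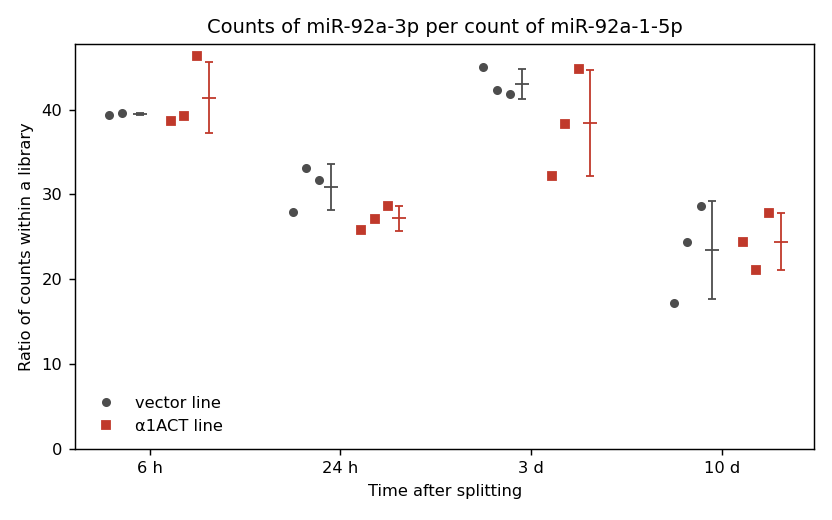
Counts of miR-92a-3p per count of miR-92a-1-5p within each library (y axis, no unit) by time after splitting (x axis). Symbols are libraries of the vector line (circles) and the α1ACT line (squares), and bars give mean ± SD. The libraries of 3 d lie between 32.2 and 45 and those of 10 d between 17.2 and 28.7.

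Ratios within a library do not depend on scaling, so the step of miR-92a-3p from 3 d to 10 d is also given relative to each of the 9 other tested members. The numerator and the times were chosen for the fall already seen, so these ratios are a description with no test, and their common sign follows from that choice. The log2 ratio of miR-92a-3p to miR-92a-1-5p differed between the times by -0.904 in the vector line and -0.648 in the α1ACT line, with no overlap of 3 d and 10 d in either. Relative to miR-17-5p the values were -0.653 and -0.899, and relative to miR-20a-5p -1.19 and -0.597, also without overlap. Averaged over the lines, these 3 differences stayed between -1.03 and -0.641 in 16 other settings, the exchange of the doubted pair included.

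The log2 ratio to miR-19b-3p differed by -1.47 and -1.62, that to miR-19a-3p by -1.16 and -1.41, and in both the times overlapped in the α1ACT line. The ratio to miR-17-1-3p differed by -1.2 and -1.31 and that to miR-19a-5p by -1.09 and -3.8, with overlap in the vector line. Averaged over the lines, the smallest differences were those to miR-18a-5p (-0.854 and -0.363) and miR-18a-3p (-0.92 and -0.07), where the times overlapped in both lines.

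miR-17-5p, which gives the cluster its name and targets cell cycle inhibitors such as p21, varied less. In the vector line its levels were 125.3 and 107.7 CPM at 6 h, 101, 98.01 and 131.7 at 24 h, 168.1, 126.3 and 151.1 at 3 d and 100.8, 107.4 and 112.3 at 10 d. The group of 3 d lay above that of 10 d and overlapped with 24 h. It rose by 0.42 from 24 h to 3 d (SE 0.141, adjusted p = 0.0311) and fell by 0.46 from 3 d to 10 d (SE 0.14, adjusted p = 0.0165). These calls were lost in 7 and 3 of 37 settings, among them those without vector 3 d replicate 1 or replicate 3 and, for the rise, without vector 24 h replicate 1 or replicate 2 or without the doubted pair (adjusted p = 0.0505). Vector 3 d replicate 1 is the library with the fewest counts, 75 of them miR-17-5p.

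miR-17-5p of the α1ACT line was at 97.76, 110.9 and 92.49 CPM at 6 h, 119.1, 131.1 and 120.5 at 24 h, 146.3, 121.8 and 116.9 at 3 d and 105, 115.2 and 104.1 at 10 d. Its step from 3 d to 10 d was -0.25 (SE 0.138, adjusted p = 0.17). A difference from the vector line was not shown: edgeR's interaction of line and time gave miR-17-5p an adjusted p of 1. The arm ratio of Mir17, miR-17-5p counts per miR-17-1-3p count, had a median of 6.36 over the 23 libraries. Its highest value, 25, came from the shallow vector library of 3 d, where miR-17-1-3p had 3 counts.

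For miR-20a-5p, which shares the miR-17 seed, the vector line had 50.97 and 59.48 CPM at 6 h, 51.86, 42.77 and 46.75 at 24 h, 33.63, 54.7 and 64.83 at 3 d and 53.93, 50.58 and 51.87 at 10 d, with every pair of times overlapping. The α1ACT line had 43.82, 44.84 and 43.24, then 50.96, 57.87 and 46.59, then 62.26, 57.65 and 53.63 at 3 d, and 40.03, 45.88 and 33.72 at 10 d. There 3 d lay wholly above 10 d. The fall was 0.53 (SE 0.177, adjusted p = 0.0223), and the same step in the vector line was -0.04 (SE 0.177, adjusted p = 0.897). edgeR's interaction test gave miR-20a-5p an adjusted p of 1, so a difference between the lines was not shown. The call was lost in 4 of 37 settings.

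miR-18a-5p belongs to the family with a seed of its own. In the vector line it was at 18.57 and 17.57 CPM at 6 h, 24.04, 23.26 and 25.68 at 24 h, 11.21, 27.01 and 28.13 at 3 d and 18.56, 15.14 and 18.81 at 10 d. The value of 11.21 came from 5 counts in the shallow library. The α1ACT line was at 12.22, 20.29 and 18.61, then 16.58, 21.28 and 20.61, then 24.9, 29.91 and 22.26 at 3 d, and 16.86, 18.22 and 10.6 at 10 d, with 3 d wholly above 10 d.

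It fell over this step by 0.74 (SE 0.253, adjusted p = 0.0272) in the α1ACT line, a call lost in 4 of 37 settings, among them those without α1ACT 3 d replicate 1 or replicate 2 or without α1ACT 10 d replicate 3. The vector value of miR-18a-5p was -0.46 (SE 0.255, adjusted p = 0.178). Its other arm, miR-18a-3p, had between 0 and 21 counts per library. At 3 d and 10 d its α1ACT levels were 4.892, 5.635 and 6.577 against 2.107, 2.603 and 3.372 CPM, which did not overlap, with a log2 fold change of -1.12 (SE 0.481, adjusted p = 0.0719).

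The miR-19 family, known as the main oncogenic component of the cluster, passed no test of time with its 3p strands. miR-19b-3p was at 173.6 and 188.3 CPM at 6 h and 206.4, 185.2 and 193.6 at 24 h in the vector line, then at 62.77, 170.2 and 157.3 at 3 d and 135.7, 124.6 and 208.1 at 10 d. The levels of the α1ACT line were 167.7, 183.1 and 157.6, then 179, 171.9 and 138, then 40.47, 116.2 and 163.9, and at 10 d 66.85, 180.9 and 174.9. A single library stood low in each of 3 groups: vector 3 d replicate 1, α1ACT 3 d replicate 1 and α1ACT 10 d replicate 1.

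miR-19a-3p was low in the same libraries, at 11.21, 4.892 and 7.853 CPM. Its levels were otherwise 23.76 and 28.84 at 6 h, 37.43, 36.13 and 30.29 at 24 h, 27.35 and 25.18 at 3 d and 18.06, 17.2 and 29.07 at 10 d in the vector line. The others of the α1ACT line were 22.75, 29.26 and 14.78, then 22.72, 31.06 and 19.26, then 19.51 and 21.75 at 3 d, and 20.5 and 23.61 at 10 d. The low libraries had 448557, 2021036 and 5070120 counts, the first and last being the shallowest and the deepest of all 23, and all carry the replicate number 1. Whether depth or replicate number had a part in these values was not tested.

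Over the 23 libraries the log2 CPM of miR-19a-3p and miR-19b-3p had Pearson's r = 0.93 and Spearman's rho = 0.85, the highest among the 45 pairs of members. These points share libraries, depth and, with 1 base of difference, nearly the same sequence, so reads of one could be counted for the other. The count of miR-19b-3p per count of miR-19a-3p ranged from 5.13 to 10.7. The pair of miR-19b-3p and miR-92a-3p, neighbours on both chromosomes, had r = -0.18, and rho = -0.23. The plot of the miR-19 members shows the 3 low libraries at its lower left.

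**Figure D4:**
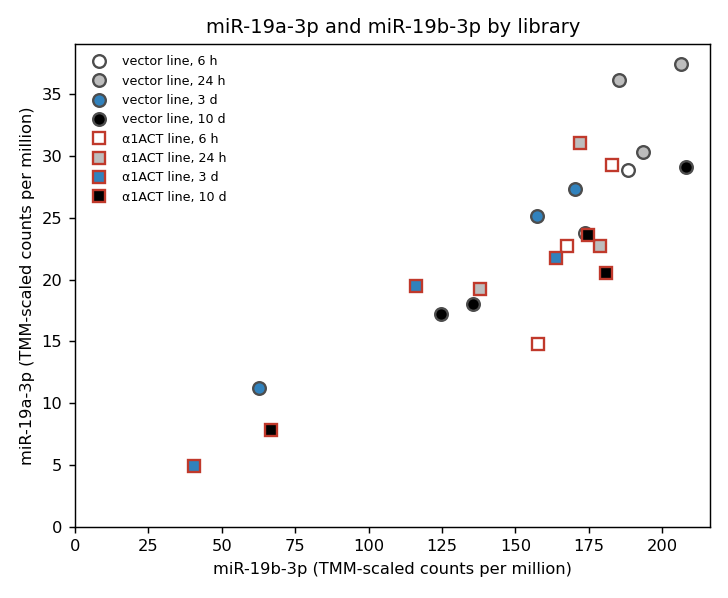
miR-19b-3p (x axis) and miR-19a-3p (y axis), both in TMM-scaled CPM, in each of the 23 libraries. Circles are the vector line, squares the α1ACT line, and the fill gives the time after splitting. The 3 libraries at the lower left have 40.47, 62.77 and 66.85 on the x axis and 4.892, 11.21 and 7.853 on the y axis.

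rno-miR-19a-5p, the passenger strand of Mir19a, was the only member called higher at 10 d than at 3 d. In the α1ACT line it had 0, 4 and 3 counts at 3 d (0, 1.734 and 1.518 CPM) and 27, 22 and 10 counts at 10 d (5.172, 7.158 and 4.818 CPM). The groups did not overlap. The fitted log2 fold change was 2.36 (SE 0.676, adjusted p = 0.00931), a value that rests on very few counts at 3 d, where 1 library was at 0. In that library 3 counts would be 1.48 CPM before TMM scaling. Without that library the log2 fold change was 1.78, and the call was lost (adjusted p = 0.0526).

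At 6 h and 24 h the α1ACT levels of miR-19a-5p were 5.057, 3.304 and 6.567, and 3.07, 5.532 and 1.344 CPM. In the vector line they were 2.16 and 4.506 at 6 h, 5.151, 8.721 and 2.634 at 24 h, 8.967, 2.026 and 4.822 at 3 d and 6.02, 4.129 and 3.705 at 10 d, all overlapping. edgeR's interaction of line and time gave miR-19a-5p an adjusted p of 1. The remaining tested arm, miR-17-1-3p, was at 13.91 to 23.75 CPM in the α1ACT line and 6.725 to 29.47 in the vector line, with no call.

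**Figure D5:**
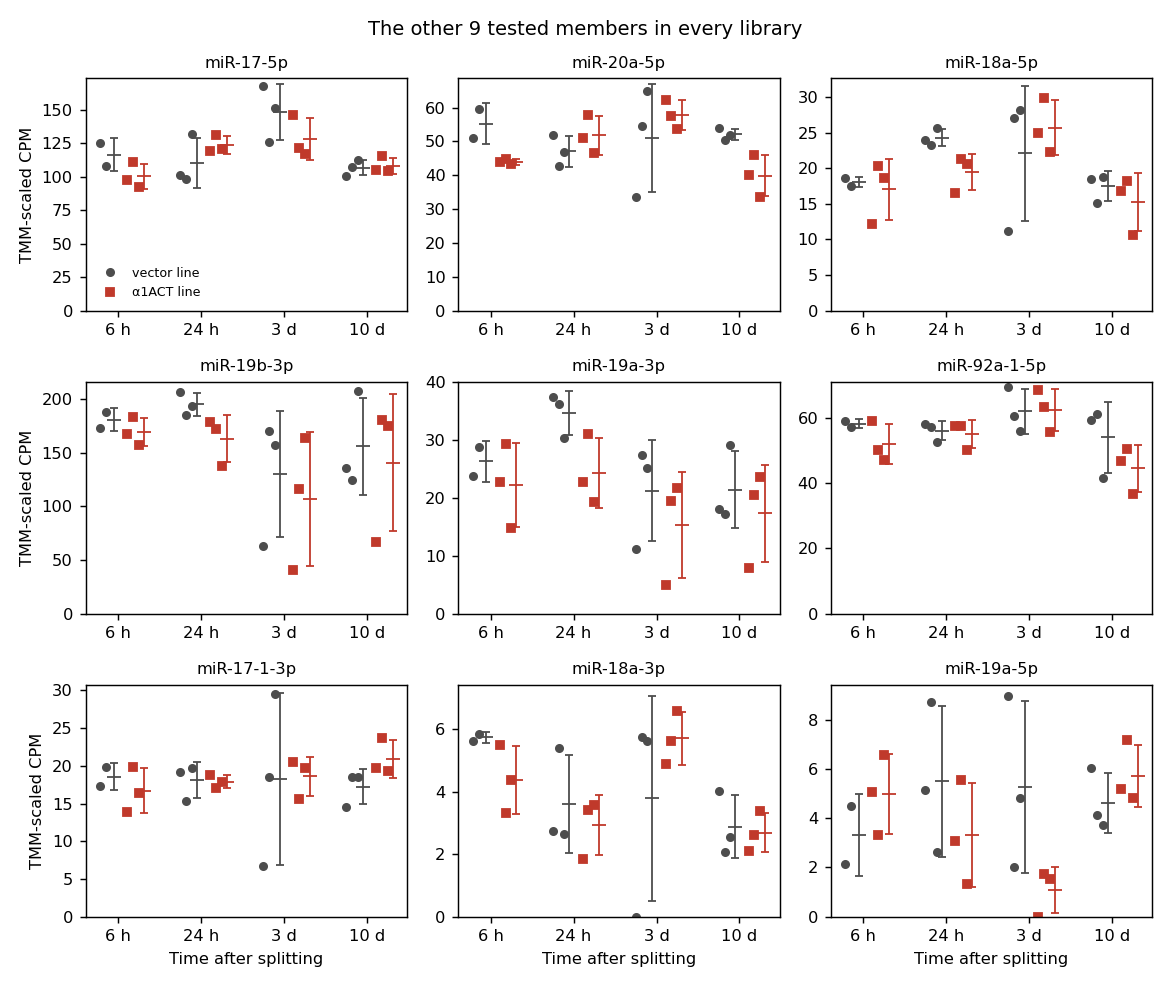
The 9 tested members other than miR-92a-3p in each library (y axes, TMM-scaled CPM, each panel with its own scale from 0) by time after splitting (x axes). Circles are the vector line, squares the α1ACT line, and bars give mean ± SD. miR-19b-3p and miR-19a-3p show 1 low library in each of 3 groups, and miR-19a-5p lies between 0 and 1.734 in the α1ACT line at 3 d.

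Between the lines no member was called, as the mean over the 4 times or at any time. For the mean, 12.6% of all tested entries were called, and 1 member, miR-92a-3p, had an unadjusted p under 0.05. All 10 members had a log2 fold change below 0 (8 of 10 with upper-quartile factors or library totals), with a median of -0.149 beside 0.001 over all entries. miR-92a-3p was at -0.17 (SE 0.061, adjusted p = 0.0636). DESeq2 called it (-0.183, adjusted p = 0.0495), and so did edgeR without vector 3 d replicate 3 or vector 10 d replicate 1 (-0.193 in each). It was -0.0789 (adjusted p = 0.474) with upper-quartile factors, -0.10 (adjusted p = 0.279) with library totals and -0.173 (adjusted p = 0.329) with the pair exchanged. The largest differences were those of miR-19a-5p at -0.45 (SE 0.313, adjusted p = 0.373) and miR-19a-3p at -0.42 (SE 0.216, adjusted p = 0.201), and the smallest that of miR-17-1-3p at -0.01 (SE 0.138, adjusted p = 0.986).

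At single times edgeR called 0 members, with a background of 0% for 6 h, 0.372% for 24 h, 0.372% for 3 d and 1.49% for 10 d. At an unadjusted p under 0.05 there were 0, 0, 1 and 1 members. DESeq2 and limma-voom also called 0 members at each time. For miR-92a-3p the difference at 6 h was -0.10 (SE 0.132, adjusted p = 0.775), and its sign depended on the scaling and on the doubted pair of columns. The interaction of line and time called 0 members, with 0 at an unadjusted p under 0.05 and a background of 0%. For miR-92a-3p the adjusted p of edgeR's interaction test was 1.

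The paralogous clusters gave 8 entries, of which 6 were tested, all from the miR-106b-25 cluster, whose hairpins lie within the cell cycle gene Mcm7 in mammals. From 3 d to 10 d 3 of 6 were called in each line, beside 25.3% and 32.7% of all tested entries, and all were lower. The passenger strand miR-106b-3p fell by 0.70 (SE 0.115, adjusted p = 5.24e-05) in the vector line, from 681.5, 696.9 and 604.4 CPM to 394.6, 454.9 and 368.5. The α1ACT fall was 0.77 (SE 0.114, adjusted p = 1.08e-05), from 679.9, 625.5 and 602 to 374.5, 391.7 and 355.1. It had risen from 24 h to 3 d by 0.63 (adjusted p = 0.000238) and 0.68 (adjusted p = 0.000123).

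miR-25-3p, the most abundant miRNA with the miR-92a seed at 6082 to 8779 CPM, fell from 3 d to 10 d by 0.30 (SE 0.0948, adjusted p = 0.0189) and 0.28 (SE 0.0947, adjusted p = 0.0272). It was also lower in the α1ACT line over the 4 times, by 0.18 (SE 0.0487, adjusted p = 0.0195), the only call of 6 in that comparison. With the doubted pair exchanged its calls were lost (adjusted p = 0.179 and 0.059 for the step, 0.0682 for the lines), and with the pair left out that for the lines (0.0752). miR-106b-5p fell by 0.33 in the vector line (adjusted p = 0.0252) and was at -0.11 in the α1ACT line (adjusted p = 0.458), and miR-93-3p fell by 0.72 in the α1ACT line (adjusted p = 0.044) and was at -0.14 in the vector line (adjusted p = 0.762). With the exchange, these adjusted p-values of miR-106b-5p and miR-93-3p were 0.0626 and 0.067, and with the pair left out 0.0697 and 0.0475. miR-93-5p, with the miR-17 seed, was called in the other direction, and was at 0.45 (adjusted p = 0.0188) and 0.36 (adjusted p = 0.0188) from 6 h to 10 d. The vector call was lost with the pair exchanged (0.04, adjusted p = 0.993) or left out (0.20, adjusted p = 0.583), and the α1ACT call with the exchange (adjusted p = 0.0765). miR-106b-3p kept its calls from 24 h to 3 d and from 3 d to 10 d in each case. In the α1ACT line miR-25-5p was at -1.26 from 6 h to 24 h (adjusted p = 0.00474) and 0.995 from 24 h to 3 d (adjusted p = 0.0178). miR-106b-5p was at 0.33 there from 6 h to 24 h (adjusted p = 0.048). From 6 h to 10 d there, miR-93-3p was at -0.87 (adjusted p = 0.0188) and miR-106b-3p at -0.31 (adjusted p = 0.0437). With the exchange these adjusted p-values of miR-106b-5p and miR-106b-3p were 0.0791 and 0.109.

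The other entries with the miR-92a seed passed no test. miR-92b-3p, with 2 substitutions from miR-92a-3p, was between 2.409 and 22.42 CPM, and its step from 3 d to 10 d was -0.68 (SE 0.455, adjusted p = 0.276) and -0.78 (SE 0.444, adjusted p = 0.176). miR-32-5p was between 2.189 and 10.21 CPM, and its step was 0.69 (SE 0.418, adjusted p = 0.217) and 0.86 (SE 0.423, adjusted p = 0.12). At these depths SEs were over 3 times that of miR-92a-3p.

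Some entries outside the cluster had a course nearer to that of miR-92a-3p than any other member had. Over the 23 libraries its log2 CPM had r = 0.921 with miR-423-3p, 0.866 with miR-328a-3p, 0.846 with miR-151-3p, 0.831 with miR-106b-3p and 0.806 with miR-671, and 0.62 with miR-92a-1-5p, the highest among members. For miR-19b-3p the nearest after miR-19a-3p were miR-96-5p (r = 0.791), miR-505-3p (0.755), miR-186-5p (0.735) and miR-340-3p (0.715). These points share libraries, depth and times. The outside entries were picked as the highest of all tested entries, whereas the cluster offers few members, so the comparison is uneven. Levels differed too: the entries named for miR-92a-3p had means of 96.2 to 4050 CPM, and miR-92a-1-5p had 55.43. Where 0.62 ranks among all tested entries is not given here.

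Base composition moved with the same step. Mature miR-92a-3p is 57.1% G and C, the highest of the tested members, miR-106b-3p is 63.6%, and miR-19a-3p and miR-19b-3p are 34.8% and 39.1%. GC content did not order all members by their step. In the vector and α1ACT lines miR-17-1-3p, at 54.5%, was at -0.26 and 0.17 on the log2 scale. miR-20a-5p, at 39.1%, was at -0.04 and -0.53, and miR-18a-5p, at 43.5%, at -0.46 and -0.74. Over the 248 of 269 tested entries with a sequence (92.2%), GC content and the log2 fold change from 3 d to 10 d had r = -0.41 in the vector line and -0.36 in the α1ACT line. The 55 entries at or above the GC content of miR-92a-3p had medians of -0.32 and -0.44. With a GC trend removed from each library, miR-92a-3p fell by 0.94 (adjusted p = 3e-06) and 0.95 (adjusted p = 2.34e-06) over this step. The calls were as before and the falls somewhat smaller. This GC offset was added after seeing the data, and whether base composition had a part in the fall was not tested.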

How the data were processed

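Libraries were made from the miRNA-enriched fraction of PC12 RNA by an Illumina small RNA method, per the labels' protocols. The authors deposited whole-number read counts per mature miRNA in a pair of tables, whose names point to sRNAbench and Chimira. The edgeR package is named, per the submitters' processing notes. The settings, reference release and build, not given in the sources used here, are unknown. The control columns were taken as the vector line and those named WT as the α1ACT line, an assumption made because the construct's repeat is of normal length. Another 12 columns per table match no sample and were not used. An entry with no name, holding 0 counts, was left out.

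The members, lists and rules were chosen with earlier results of these data known. All members of the cluster and the called members of the miR-106a-363 and miR-106b-25 clusters are named, and likeness was ranked by Pearson's r of log2 CPM (prior count 2) for the 2 most abundant members. miR-92b-3p and miR-32-5p are named for their seed. Counts were fitted with edgeR 4.0.16 (R 4.3.3): filterByExpr (269 of 413 entries), TMM, 1 mean per group over 23 libraries, robust quasi-likelihood F tests, and Benjamini-Hochberg adjustment over the 269, with calls under 0.05. The biological coefficient of variation was 16.1%. Each SE was back-calculated as the absolute log2 fold change divided by the square root of F. Log2 ratios used counts plus 0.5. No duplicate libraries were found (chi-square per degree of freedom of replicate pairs 21.4 to 214). Steps were tested on simulated data. Alternatives were the Chimira table (627 entries), other scalings and filters, DESeq2 1.42.0, limma-voom 3.58.1, a replicate block, the compared groups alone, exchanging or leaving out the doubted pair of columns, and leaving out each library. A GC offset and the Chimira table with the pair exchanged were added after seeing the data. Sequences and hairpin names are RefSeq's (GRCr8), and 10 of 10 tested members matched.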

Additional observations from a re-analysis of the deposited data

How the results depend on the processing

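Of the members, miR-92a-3p was the most stable: its F tests of time and its steps from 24 h to 3 d and from 3 d to 10 d kept their calls in both lines under 37 other settings (3 d to 10 d: -1.35 to -0.84 in the vector line, -1.25 to -0.95 in the α1ACT line). Its difference between the lines at 6 h changed sign to 0.139 with the Chimira table, 0.0984 with upper-quartile factors and 0.165 with the doubted pair of columns exchanged, and that at 10 d ranged from -0.316 to 0.0208 when single libraries were left out, the latter without vector 10 d replicate 2, and was -0.473 with the pair exchanged, -0.419 with the Chimira table and -0.0138 with the pair left out. Counts of members called changed as follows, and where no value shows the cause it was not tested. For the mean difference of the lines, DESeq2 called 1 in place of 0, and leaving out single libraries gave 0 to 1 (1 without vector 3 d replicate 3 or vector 10 d replicate 1). For time in the vector line, upper-quartile factors, the compared groups alone and the exchanged columns gave 1 in place of 2, and single libraries left out gave 1 to 2 (1 without vector 3 d replicate 1 or 3). For time in the α1ACT line, the Chimira table, as it was or with the pair exchanged, gave 4 in place of 2. The replicate block and the GC offset also gave 4, and a mean CPM of at least 10 gave 5 of 8 tested members. DESeq2's size factors, DESeq2, limma-voom, the compared groups alone and leaving out the pair gave 3 each. Single libraries left out gave 1 to 4 (4 without vector 3 d replicate 1, 1 without α1ACT 3 d replicate 1 or 3). From 6 h to 10 d in the vector line and from 6 h to 24 h in the α1ACT line, the Chimira table and the exchanged columns each gave 0 in place of 1. With the exchange made in the Chimira table, both calls of miR-92a-3p returned (adjusted p = 1.48e-05 and 0.00306). From 24 h to 3 d in the vector line, upper-quartile factors, the compared groups alone and leaving out the doubted pair gave 1 in place of 2, and single libraries 1 to 2 (1 without vector 24 h replicate 1 or 2 or vector 3 d replicate 1 or 3). From 3 d to 10 d, upper-quartile factors gave 1 in place of 2 in the vector line and 3 in place of 5 in the α1ACT line, where no low-count filter gave 2, limma-voom and the compared groups alone gave 6, and single libraries gave 1 to 2 and 1 to 6. Whether same-numbered libraries pair was not settled. Of 77 such pairs 33 had a correlation of deviations over 0.1 (range -0.68 to 0.73). Of 23 libraries 10 matched their own number best, and no chance level was computed for either count. Low depth limits miR-18a-3p, miR-19a-5p and the 3 untested entries.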
